A study of Mus musculus with 4 samples.

Results

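The genes described here are 10 members of the Notch pathway, namely the receptors Notch1, Notch2 and Notch3, the ligands Jag1, Jag2 and Dll1, the target genes Hes1, Hey1 and Nrarp, and the inhibitor Numb. They were taken by gene symbol, and all 10 were found by Ensembl identifier in each of the 4 gene lists, which hold 32932 genes in all and 30406 in common. Droplet-based single-cell RNA-seq (10x Genomics 3′ chemistry) was performed on cells of the embryonic and newborn mouse mammary gland, with 1 library per stage at embryonic days E13.5, E14.5 and E15.5 and at birth (P0). All animals were females labelled WT C57B6 (wild type; the substrain is C57 B6/N in the study's methods), and tissue was pooled from several of them before sorting. Cells positive for CD45, CD31 or Ter119 were excluded in the sort, so blood and vascular cells were depleted, and both EpCAM-positive (epithelial) and EpCAM-negative (stromal) cells were collected. With a single library per stage, effects of stage and of library cannot be told apart, and no p-value is given. The intervals below are exact 95% intervals that cover counting error only, not the spread between animals.

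Notch signalling passes between touching cells. A Jagged or Delta ligand on one cell binds a Notch receptor on its neighbour, the receptor is cut in successive steps, and its freed intracellular domain enters the nucleus and switches on targets such as Hes1 with the DNA-binding protein RBPJ. In the mammary epithelium, Notch1 is known to mark luminal progenitors, active Notch signalling favours luminal fate, and the basal (myoepithelial) layer is a known source of ligand.

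Cells with at least 5000 UMIs (unique molecular identifiers, 1 for each transcript counted) and at most 6% mitochondrial UMIs were kept. Each cell was assigned to epithelium or mesenchyme by the larger of its summed UMIs of Epcam, Krt8, Krt18, Krt5 and Krt14 or of Col1a1, Col1a2 and Col3a1. In stage order, this gave 98, 45, 532 and 230 epithelial and 135, 31, 283 and 273 mesenchymal cells, while 3 cells had equal sums and were left out. This rule does not separate mammary from skin epithelium, whereas the study removed contaminating skin cells from its epithelial analysis. In the clusters described below, 22 of the 98 epithelial cells at E13.5 were named mammary bud-like and 31 periderm-like. At E15.5, 16 were named epidermis-like. Median depth ranged from 16438 to 26725 UMIs per cell in the embryonic groups and was 9973 in epithelium and 8743 in mesenchyme at P0, so shares of positive cells are also given after thinning every cell to 5000 UMIs. Levels are UMIs of the gene per 1000000 UMIs of the group (CPM). Markers that the assignment did not use went with it: 8 epithelial markers such as Cdh1 and Trp63 summed to between 2036 and 4072 CPM in epithelium and to between 5.97 and 115 CPM in mesenchyme, and 8 mesenchymal markers such as Pdgfra and Twist1 to between 75.6 and 142 CPM and between 2449 and 15202 CPM. Endothelial markers (6 genes) summed to at most 5.50 CPM in epithelium and 96.5 CPM in mesenchyme, immune markers (6 genes) to at most 11.96 and 99.7 CPM, and Cdh5 was at 0 UMIs in epithelium at every stage. Erythroid markers (4 genes) summed to 6586 CPM in P0 mesenchyme, through a cluster of 8 cells led by haemoglobin genes, and to at most 10.7 CPM elsewhere. No kept cell barcode was shared between libraries, and among all barcodes 1 was shared between E13.5 and E15.5 and 1 between E14.5 and E15.5.

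Jag2 and Nrarp are a ligand and a target that seldom had UMIs in the same epithelial cells at E13.5 (values below), and the 250 bases before their start sites are shown so that the regulatory DNA of this pair can be read beside those values. Promoter entries (RefSeq, GRCm38.p6) were matched for 8 of the 10 genes, all but Hes1 and Hey1. The core of the RBPJ motif, TGGGAA, and the E-box CACGTG, a motif of basic helix-loop-helix factors, were searched on both strands. TGGGAA was found in none of the 11 windows of these genes and in 21.6% of all 32851 windows of this length. CACGTG was found in 1 of the 11, that of Nrarp, starting 108 bases before its start site, and in 6.02% of all windows. For Jag2 the RefSeq start lies downstream of the GENCODE start used for the gene positions below, so its window falls inside that gene span. Capitals mark CACGTG, and both sequences run 5′ to 3′ on the strand of the gene.
Nrarp, chr2:25180508-25180757, plus strand: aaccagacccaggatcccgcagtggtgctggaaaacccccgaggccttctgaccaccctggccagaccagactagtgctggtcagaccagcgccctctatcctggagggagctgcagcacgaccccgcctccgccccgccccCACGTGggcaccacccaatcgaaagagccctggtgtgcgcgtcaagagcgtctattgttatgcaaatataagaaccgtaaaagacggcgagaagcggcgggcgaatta
Jag2, chr12:112929496-112929745, minus strand: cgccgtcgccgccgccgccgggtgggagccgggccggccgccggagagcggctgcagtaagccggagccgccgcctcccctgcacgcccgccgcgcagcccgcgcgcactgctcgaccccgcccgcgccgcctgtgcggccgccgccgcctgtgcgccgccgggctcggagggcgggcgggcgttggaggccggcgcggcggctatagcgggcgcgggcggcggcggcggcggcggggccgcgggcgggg

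The first comparison asked in which tissue each gene was found. Notch1 was higher in epithelium at every stage and Notch3 from E14.5 on, Jag2 and Nrarp were higher there throughout the embryonic stages, and Notch2 was higher in mesenchyme at E13.5 and P0. Hes1 was higher in epithelium at E14.5 and E15.5 and was at 157 and 164 CPM in the tissues at P0. A gene was called higher or lower when its level differed at least 2-fold and the interval of the ratio lay on one side of 1, among genes with at least 20 UMIs over both groups. At E13.5, 4 of the 9 members with enough UMIs were called higher in epithelium, where 9.81% of 10630 genes were, and 2 lower, where 20.7% were. At E14.5 the counts were 6 higher (13.4% of all genes) and 0 lower (16.8%) of 8 members, and at E15.5 7 higher (16.2%) and 0 lower (22.3%) of 10. At P0, 4 were higher (23.8%) and 1 lower (18.4%) of 7 members. The median log2 ratio of these members was 0.87, 1.98, 2.17 and 1.55 in stage order, and that of all genes tested was -0.18, 0.02, -0.10 and 0.30.

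**Figure D1:**
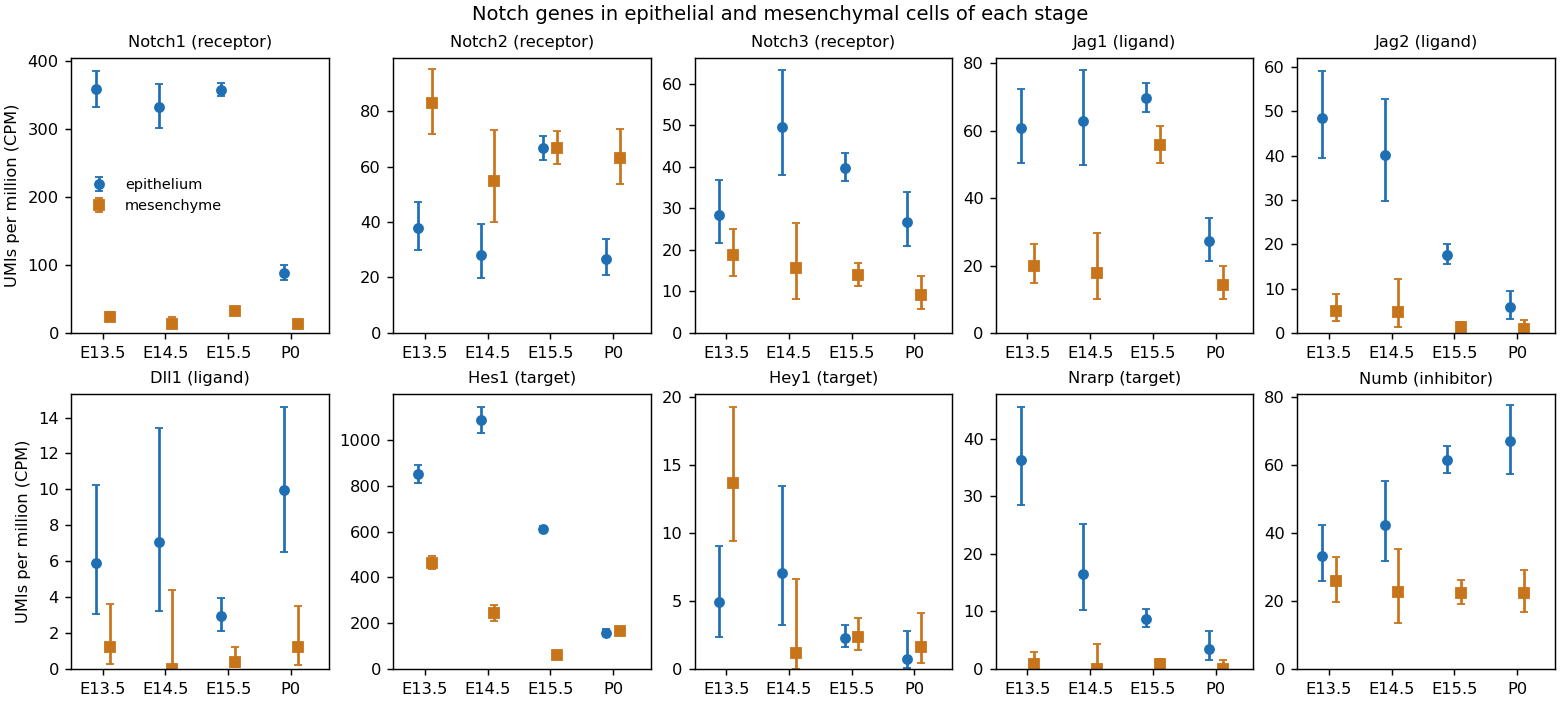
Level of each gene in CPM (vertical axes, each from 0) at the 4 stages (horizontal axes) in epithelial (circles) and mesenchymal cells (squares), with bars for the exact 95% Poisson interval. Epithelial Notch1 stood between 332 and 358 CPM in the embryo and at 88.0 CPM at P0, and Hes1 ended at 157 and 164 CPM in the 2 tissues at P0.

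Notch1 (ENSMUSG00000026923, chromosome 2, 26457903 to 26516663, minus strand; all gene positions are those of GENCODE M21 on GRCm38) was at 358, 332, 358 and 88.0 CPM in epithelium from E13.5 to P0. In mesenchyme it was at 23.3, 13.1, 32.1 and 13.6 CPM in the same order. It was the receptor with the clearest difference between tissues, with ratios of 15.4 (interval 11.7 to 20.6), 25.3 (14.002 to 51.1), 11.1 (9.77 to 12.8) and 6.49 (4.51 to 9.60). After thinning, a Notch1 UMI was kept in 75.4%, 65.8%, 77.0% and 33.6% of epithelial cells. Of the 233 mesenchymal UMIs at E15.5, 1 cell held 37, so the mesenchymal level there rested partly on that cell. With the cells that Scrublet called doublets left out, 186 UMIs and a level of 26.0 CPM remained. The 3 embryonic levels in epithelium were not apart from each other, and the P0 level was below them.

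Notch2 (ENSMUSG00000027878, chromosome 3, 98013527 to 98150361, plus strand), a second receptor, was at 37.7, 28.3, 66.6 and 26.8 CPM in epithelium and at 83.0, 54.9, 66.7 and 63.0 CPM in mesenchyme from E13.5 to P0. Mesenchyme was 2.20-fold higher at E13.5 (1.68 to 2.90) and 2.35-fold higher at P0 (1.77 to 3.16). At E14.5 it was 1.94-fold higher (1.23 to 3.09), just short of the limit, and at E15.5 the ratio of epithelium to mesenchyme was 0.999 (0.895 to 1.12). Only its E15.5 level stood apart from the next in epithelium (1.77-fold, 1.40 to 2.26), and in mesenchyme only that of E13.5 (1.25-fold, 1.05 to 1.47). When ratios were scaled by the median ratio of all genes, which stood at log2 -0.18 at E13.5, the E13.5 ratio became 0.513 and was no longer called.

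Notch3 (ENSMUSG00000038146, chromosome 17, 32120820 to 32166852, minus strand) was at 28.4, 49.5, 39.8 and 26.8 CPM in epithelium and at 18.7, 15.51, 13.9 and 9.17 CPM in mesenchyme. Its epithelial excess was 1.52-fold at E13.5 (1.01 to 2.30) and was called at the later stages, in turn 3.19-fold (1.74 to 6.32), 2.86-fold (2.31 to 3.57) and 2.92-fold (1.80 to 4.90). Notch3 is best known from vascular mural cells. Mural markers (6 genes) summed to between 16.2 and 70.7 CPM in epithelium and 38.8 and 116 CPM in mesenchyme, and their part in the Notch3 level was not tested.

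Among the ligands, Jag1 (ENSMUSG00000027276, chromosome 2, 137081456 to 137116644, minus strand) was the one shared by both tissues. Epithelium held 60.7, 62.8, 69.8 and 27.2 CPM and mesenchyme 19.9, 17.9, 55.7 and 14.4 CPM. The ratio was 3.05 at E13.5 (2.17 to 4.35) and 3.51 at E14.5 (2.01 to 6.56), and both were called. At E15.5, where the mesenchymal level was highest, the ratio was 1.25 (1.12 to 1.41), and at P0 it was 1.89 (1.25 to 2.91).

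Jag2 (ENSMUSG00000002799, chromosome 12, 112907819 to 112929776, minus strand) was a ligand found mainly in epithelium. It was at 48.5, 40.1, 17.6 and 5.74 CPM in epithelium and at 4.98, 4.77, 1.24 and 0.80 CPM in mesenchyme. At E13.5 an unnamed cluster, described below, held 90 of the 99 epithelial UMIs. The other E13.5 clusters stood together at 9.70 CPM, with mammary bud-like cells at 21.5 CPM (9.30 to 42.4). The 3 embryonic ratios of 9.73 (5.33 to 19.5), 8.39 (3.08 to 32.0) and 14.2 (7.37 to 31.5) were called. P0 had only 15 and 2 UMIs, too few for a call, and its ratio of 7.19 was called with a minimum of 5 UMIs. After thinning, 17.7% of epithelial cells at E13.5 kept a Jag2 UMI against 2.83% of mesenchymal cells, and 8.74% against 0.49% at E15.5.

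Dll1 (ENSMUSG00000014773, chromosome 17, 15367354 to 15376872, minus strand), the Delta-type ligand of the set, was rare. It was at 5.88, 7.07, 2.94 and 9.94 CPM in epithelium, from 12, 9, 42 and 26 UMIs, and at most at 1.25 CPM in mesenchyme. Epithelium was 7.11-fold higher at E15.5 (2.27 to 35.9) and, at P0, 8.31-fold higher (2.55 to 42.9), and the 2 earlier stages had too few UMIs for a call. These UMIs were not spread over the epithelium, as the clusters described below held most of them.

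Of the targets, Hes1 (ENSMUSG00000022528, chromosome 16, 30064384 to 30067796, plus strand), a helix-loop-helix repressor of the Hes and Hey family, was found in both tissues at every stage. From E13.5 to P0, epithelium held 850, 1086, 609 and 157 CPM and mesenchyme 465, 243, 59.8 and 164 CPM. The ratio of epithelium to mesenchyme was 1.83 (1.70 to 1.97), 4.46 (3.85 to 5.19), 10.2 (9.25 to 11.2) and 0.957 (0.832 to 1.10) in turn. All 4 epithelial levels were apart from their neighbours in the order E14.5, E13.5, E15.5, P0, and the mesenchymal order was E13.5, E14.5, P0, E15.5. The E13.5 ratio became 2.30 when each cell counted equally and 2.07 when scaled by the median ratio, both past the limit. Hes1 UMIs were unevenly spread over cells: a single E13.5 epithelial cell held 212 of 1736, and 3 mesenchymal cells held 69.1% of the 204 at E14.5. Without the richest cell of each stage, mesenchymal E14.5 and P0 stood at 159 and 154 CPM and were no longer apart (ratio 1.03, 0.840 to 1.27), while the other neighbours in that order stayed apart.

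Nrarp (ENSMUSG00000078202, chromosome 2, 25180758 to 25183339, plus strand), which encodes a feedback inhibitor of the Notch complex, was almost absent from mesenchyme. It was at 36.2, 16.5, 8.75 and 3.44 CPM in epithelium, and each neighbouring pair of these levels was apart, but E14.5 and E15.5 were not without the richest cell of each (1.72, 0.969 to 2.87). At E13.5 a cluster of periderm-like cells, described below, held 65 of the 74 epithelial UMIs. The other E13.5 epithelial clusters stood at 6.06 CPM, which is not above the E15.5 level. Mesenchyme held 2, 0, 6 and 0 UMIs, of which 1 cell at E15.5 held 4. Epithelium was 43.6-fold higher at E13.5 (11.7 to 367) and 10.6-fold higher at E15.5 (4.73 to 29.4), and at E14.5 it was at least 4.61-fold higher when 3 counts over the group stand for the 0, with an exact lower limit of 3.43.

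Hey1 (ENSMUSG00000040289, chromosome 3, 8663359 to 8667256, minus strand), a relative of Hes1, had no more than 33 UMIs in any group. It was at 4.90, 7.07, 2.31 and 0.76 CPM in epithelium and at 13.7, 1.19, 2.34 and 1.60 CPM in mesenchyme. The called excess of E13.5 mesenchyme (2.80-fold, 1.35 to 6.36) came from 1 cell that held 22 of the 33 UMIs. Without the cell with most UMIs in each tissue, the ratio of epithelium to mesenchyme moved from 0.357 to 0.857 and was no longer called.

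Numb (ENSMUSG00000021224, chromosome 12, 83794034 to 83921934, minus strand), an endocytic adaptor that antagonises Notch receptors, was at 33.3, 42.4, 61.5 and 66.9 CPM in epithelium and at 25.7, 22.7, 22.3 and 22.3 CPM in mesenchyme. Its ratios were 1.29 (0.903 to 1.86), 1.87 (1.09 to 3.34), 2.76 (2.33 to 3.28) and 3.00 (2.21 to 4.13), with the last 2 called. Mesenchymal levels at neighbouring places in the order of stages were not apart.

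**Figure D2:**
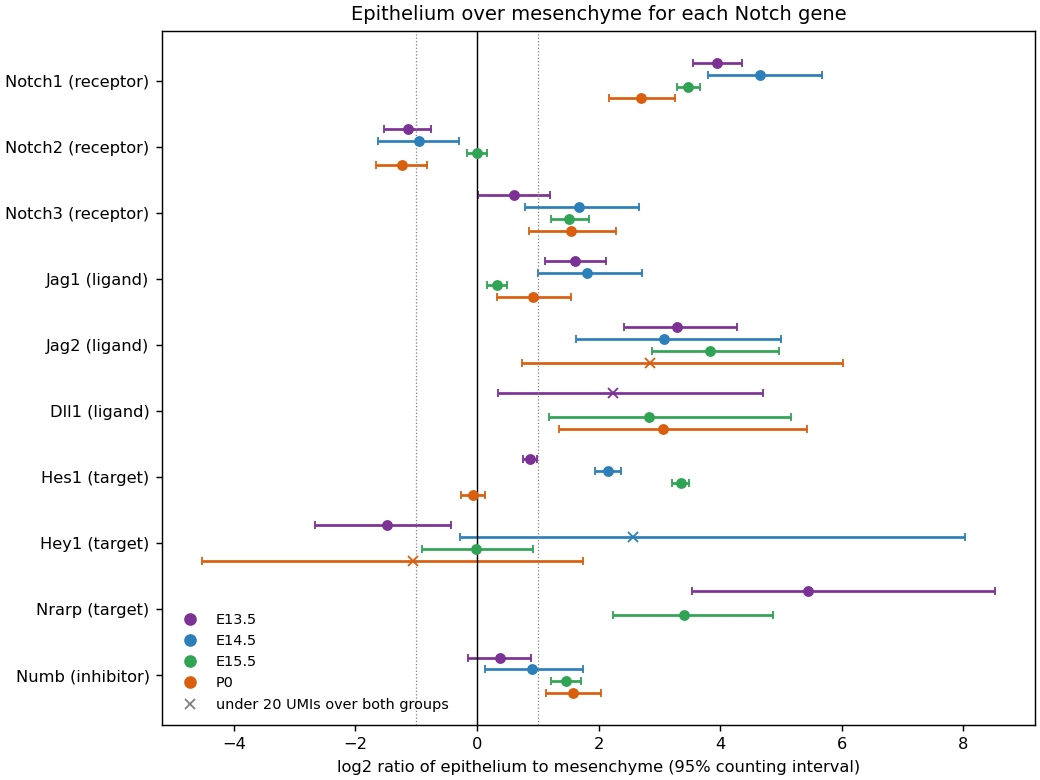
Log2 ratio of the epithelial to the mesenchymal level (horizontal axis) of each gene (vertical axis) at each stage (colours), with the exact 95% interval; dotted lines mark 2-fold and crosses mark genes with under 20 UMIs over both groups. Dll1 at E14.5 and Nrarp at E14.5 and P0 are not drawn because mesenchyme held 0 UMIs. Notch1 lies to the right at every stage, Notch2 at or left of 0, and Hes1 moves from 3.35 at E15.5 to -0.06 at P0.

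The second comparison asked how the levels at birth stood to those of E15.5. In epithelium 6 of the 10 members were called lower at P0, where 16.5% of 12247 genes were, and 1 higher, where 14.3% were. The median log2 ratio of the 10 was -1.35, and that of all genes tested -0.11. Notch1 was 4.06-fold lower (3.56 to 4.66), Hes1 3.89-fold lower (3.52 to 4.30), Jag2 3.07-fold lower (1.83 to 5.57), Jag1 2.57-fold lower (2.02 to 3.32), Nrarp 2.54-fold lower (1.30 to 5.69) and Notch2 2.49-fold lower (1.95 to 3.22). Receptors, ligands and targets were all among them. Dll1 was 3.38-fold higher (1.99 to 5.65), Notch3 was at a ratio of 0.673 (0.517 to 0.863), and Numb was at 1.09 (0.920 to 1.28). Basal-like cells (clusters below, named from other lists at each stage) were 81 of 532 at E15.5 and 19 of 230 at P0. In them Jag1 was at 76.4 and 220 CPM and Jag2 at 39.8 and 33.5 CPM. In luminal-like cells of E15.5 and luminal progenitor-like cells of P0, Jag1 was at 40.4 and 9.43 CPM and Jag2 at 1.92 and 4.71 CPM. The part of this make-up in the ligand ratios was not tested.

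With E14.5 or E13.5 in place of E15.5 as the earlier stage, an alternative added after the data were seen, Notch1 stood at ratios of 0.265 and 0.246 to its earlier level and Hes1 at 0.144 and 0.184. Jag2 and Nrarp were again lower (0.143 and 0.118, and 0.209 and 0.095), as was Jag1 (0.432 and 0.447). Periderm-like cells held 65 of the 74 Nrarp UMIs of E13.5 epithelium, and its other clusters stood at 6.06 CPM. For Jag2 an unnamed cluster held 90 of the 99 UMIs there, and the other clusters stood at 9.70 CPM. For Notch2 (0.947 and 0.710) and Dll1 (1.41 and 1.69) the call was lost, so those differences held against E15.5 only, and Numb was 2.01-fold higher against E13.5. The E15.5 table comes from an earlier Cell Ranger version than the others by its header, and its part in these values was not tested.

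In mesenchyme 2 of 7 members were lower at P0 (26.3% of 11774 genes) and 1 was higher (13.9%). Jag1 was 3.88-fold lower (2.75 to 5.61), from 55.7 to 14.4 CPM, and Notch1 2.37-fold lower (1.65 to 3.50), although scaling by the median ratio of all genes, which was log2 -0.42 here, took Notch1 to 0.563 and out of the called genes. Hes1 was 2.74-fold higher at P0 (2.39 to 3.14), opposite to its direction in epithelium. Against E14.5 and E13.5 the P0 level of Jag1 was at ratios of 0.802 and 0.720 and not called, so its difference held against E15.5 only. E15.5 was also the lowest of the 4 mesenchymal Hes1 levels: against E14.5 the P0 level was 0.673 and against E13.5 0.353 of the earlier one. Within P0 mesenchyme Hes1 ranged from 49.6 to 317 CPM over 6 clusters, 1 of which, with 53 cells and 237 CPM, had Epcam and Krt8 among its leading genes. Without the 8 cells of the haemoglobin-led cluster, the same 2 members were lower and the same 1 higher.

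The epithelium of a stage is not uniform, so epithelial cells were clustered within E13.5, E15.5 and P0, with these 10 genes and 41 other Notch pathway genes kept out of the genes that defined the clusters. E14.5 had too few cells. Clusters were called X-like from marker lists. Those that passed no list, or whose best list was that of mesenchyme, stayed unnamed. The unnamed cluster of E13.5 was left so because its best list was that of mesenchyme. Jag2 and Nrarp were highest in different clusters at E13.5, all 3 ligands were highest in basal-like cells at P0, and Jag2 was nearly absent from periderm-like, luminal-like and hormone-sensing-like cells.

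**Figure D3:**
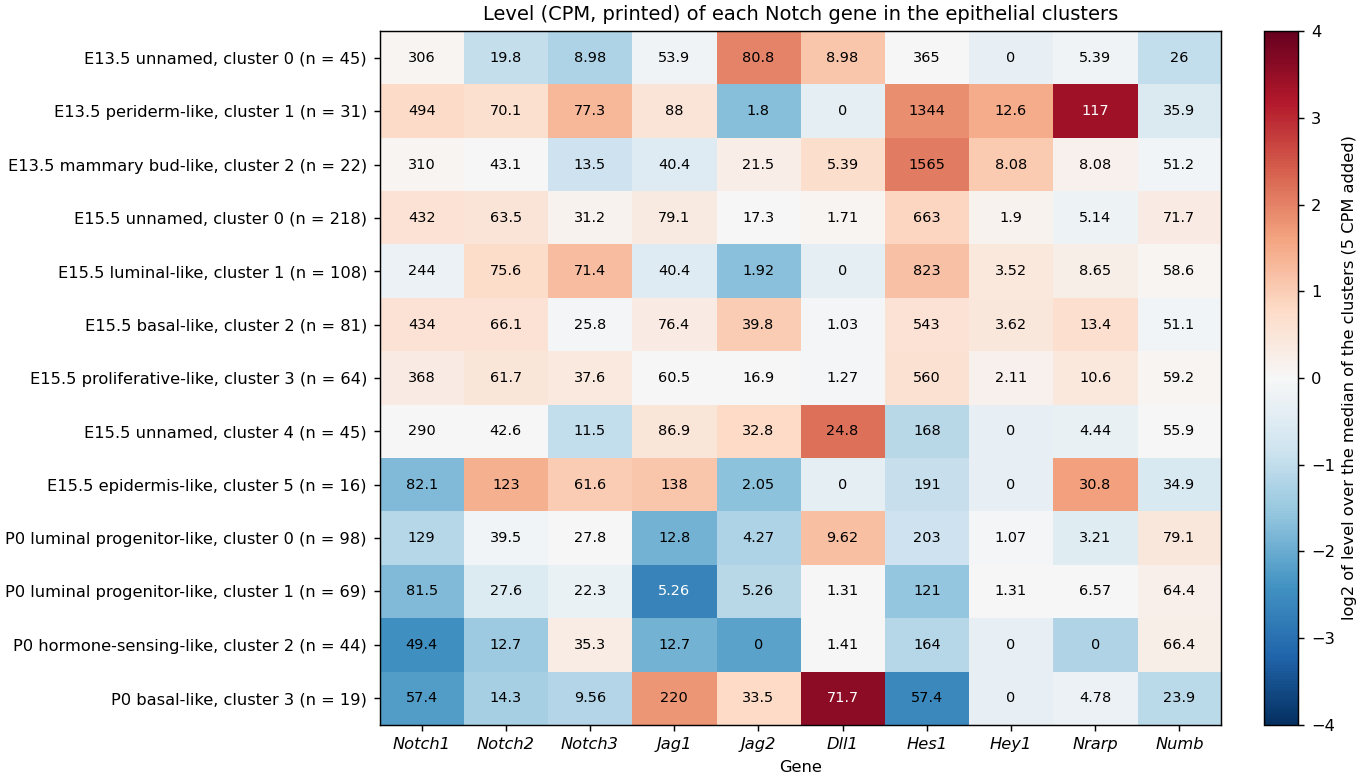
Level in CPM (printed in each cell) of the 10 genes (columns) in the epithelial clusters of E13.5, E15.5 and P0 (rows, with their number of cells), coloured by the log2 of the level over the median of the clusters with 5 CPM added. Nrarp stands out at 117 CPM in periderm-like cells of E13.5, and Jag1 (220 CPM) and Dll1 (71.7 CPM) in basal-like cells of P0.

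At E13.5 the epithelium split into 31 periderm-like cells (led by Hopx, Gabrp and Krt17; the periderm is the outermost layer of the embryonic skin), 22 mammary bud-like cells (Pthlh, Msx1, Ndnf) and an unnamed cluster of 45 cells led by Fbln2, Dcn, Ptn and Col17a1. Mesenchymal markers summed to 198 CPM in the unnamed cluster and to 14.4 and 51.1 CPM in the others, beside 2449 CPM in E13.5 mesenchyme. Col17a1, a leading gene of the unnamed cluster, is on the list of epidermis markers. The part of mesenchymal RNA or of skin cells in the values below was not tested. Jag2 was at 80.8 CPM in the unnamed cluster (65.0 to 99.3), 21.5 in bud-like cells (9.30 to 42.4) and 1.80 in periderm-like cells, where 1 of 31 cells held its only UMI. The unnamed cluster thus held 90 of the 99 Jag2 UMIs. Nrarp was at 5.39, 8.08 and 117 CPM in the same order, and periderm-like cells held 65 of its 74 UMIs. Notch3 followed Nrarp, with 8.98, 13.46 and 77.3 CPM.

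Hes1 was at 365 CPM in the unnamed cluster, 1565 in bud-like cells and 1344 in periderm-like cells, so it was higher in both clusters that had less Jag2 than the unnamed one. In the periderm-like cluster 1 cell held 212 of the 748 Hes1 UMIs. A Hes1 UMI was found in 27 of 31 periderm-like cells and in 40 of 45 cells of the unnamed cluster. Notch1 differed less, with 306, 310 and 494 CPM. Between periderm-like cells and the unnamed cluster, 4 of 8 members were called higher (13.54% of 7127 genes) and 1 lower (9.3%). Nrarp was 21.7-fold higher (9.44 to 61.2), Notch3 8.61-fold (4.26 to 19.2), Hes1 3.68-fold (3.26 to 4.16) and Notch2 3.55-fold higher (2.05 to 6.28), while Jag2 was at a ratio of 0.0222 (0.000557 to 0.127).

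At E15.5, cells comprised 108 luminal-like (Ly6d, Krtdap, Lgals3), 81 basal-like (Ndnf, Tbx3, Pthlh), 64 proliferative-like (Top2a, Mki67) and 16 epidermis-like cells (Krt1, Krt10) and 2 unnamed clusters of 218 and 45 cells. Jag2 was again the member that differed most between luminal-like and basal-like cells, with 1.92 CPM (0.71 to 4.18) and 39.8 CPM (31.4 to 49.7), a 20.7-fold excess in basal-like cells (9.08 to 58.1). Epidermis markers (6 genes) summed to 3132 CPM in luminal-like and 673 CPM in basal-like cells and periderm markers (6 genes) to 2163 and 630 CPM, and their part in this contrast was not tested. Krtdap of the epidermis list and Grhl3 of the periderm list were also on the list that named the luminal-like cells. Notch3 was 2.77-fold higher in luminal-like cells (2.03 to 3.84), at 71.4 against 25.8 CPM. These were the 1 member called higher and the 1 called lower of 8, beside 5.88% and 13.48% of 9573 genes. Notch1 was at 244 and 434 CPM and Jag1 at 40.4 and 76.4 CPM, with ratios of 0.563 (0.510 to 0.621) and 0.528 (0.413 to 0.674) that were short of the fold. Hes1 was 1.51-fold higher in luminal-like cells (1.41 to 1.63).

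Dll1 at E15.5 was concentrated in the unnamed cluster of 45 cells, led by Dcn, Has2 and Il24. Mesenchymal markers summed to 256 CPM in it and to between 41.0 and 77.0 CPM in the other clusters, epidermis markers summed to 1627 CPM in it, and their part in these values was not tested. That cluster held 28 of the 42 epithelial UMIs, at 24.8 CPM, and it was also low in Hes1 (168 CPM) and Notch3 (11.5 CPM), with Jag2 at 32.8 CPM. The 108 luminal-like cells had 0 Dll1 UMIs, where 3 counts would be 0.96 CPM. Epidermis-like cells had the lowest Notch1 (82.1 CPM) of the E15.5 clusters and the highest Jag1 (138 CPM), Notch2 (123 CPM) and Nrarp (30.8 CPM), the last from 15 UMIs of which 1 cell held 8.

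At P0 the clusters were luminal progenitor-like (2 clusters, 167 cells together), hormone-sensing-like (44 cells, with histone genes also among the leading ones) and basal-like (19 cells, led by Acta2, Myl9 and Myh11). The ligands stood out in the basal-like cells. Jag1 was at 220 CPM there (161 to 293), 9.43 in luminal progenitor-like and 12.7 in hormone-sensing-like cells. Dll1 was at 71.7, 5.89 and 1.41 CPM and Jag2 at 33.5, 4.71 and 0 CPM in the same order. The basal-like cells were 8.26% of the epithelial cells and held 46 of 71 Jag1 UMIs, 15 of 26 Dll1 UMIs and 7 of 15 Jag2 UMIs.

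Notch1 and Notch2 were higher in luminal progenitor-like than in hormone-sensing-like cells, while for Notch3 the intervals of these classes overlapped. Notch2 was at 14.3, 34.2 (26.0 to 44.2) and 12.7 CPM (5.81 to 24.1) in basal-like, luminal progenitor-like and hormone-sensing-like cells. Notch3 was at 9.56, 25.3 (18.3 to 34.1) and 35.3 CPM (22.8 to 52.1) in the same order. The basal-like values rest on 3 Notch2 UMIs (2.96 to 41.9 CPM) and 2 Notch3 UMIs (1.16 to 34.5 CPM), so the place of basal-like cells is not settled. Notch1 was at 57.4 CPM in basal-like cells (29.6 to 100.2), 108 in luminal progenitor-like (92.8 to 125) and 49.4 in hormone-sensing-like cells (34.4 to 68.7), and the first did not stand apart from the third. Hes1 was at 57.4, 166 and 164 CPM, and Numb at 23.9, 72.5 and 66.4 CPM. Between luminal progenitor-like and basal-like cells 2 of 7 members were higher (10.1% of 7235 genes), Hes1 by 2.90-fold (1.63 to 5.67) and Numb by 3.03-fold (1.27 to 9.51), and 2 were lower (5.51%). These were Jag1, for which the basal-like level exceeded the other 23.3-fold (12.96 to 44.1), and Dll1, for which it did so 12.2-fold (5.11 to 30.3). With the cell richest in each gene left out of both classes, Dll1 stood at a ratio of 0.0807 with under 20 UMIs remaining, which is too few for a call.

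The next question was whether ligand, receptor and target UMIs were found in the same single cells. Joint detection was measured as the share of cells that keep a UMI of both after thinning to 5000 UMIs, divided by the product of the separate shares, so that 1 means neither together nor apart more than the shares give. Cells of 1 library share its depth and base composition and are not replicates, so these ratios are descriptions. For all genes in at least 20% of cells, the median of the same ratio lay between 0.981 and 1.04 against each role group.

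As role groups, receptors, ligands and targets were found neither together nor apart more than their shares give in E13.5 and E15.5 epithelium. These groups mostly follow 1 gene each for targets and receptors. Hes1 gave 1736 of 1820 target UMIs at E13.5 and 8709 of 8867 at E15.5. Notch1 gave 731 of 866 and 5110 of 6631 receptor UMIs. Pairs of single genes, given below, could differ from their groups. At E13.5, 74 of 98 epithelial cells had both a receptor and a ligand UMI, 23 a receptor only and 0 a ligand only, and 91 had both a receptor and a target UMI. The thinned ratios were 0.989 for receptors and ligands, 1.02 for receptors and targets and 0.995 for ligands and targets. At E15.5 the 3 ratios were 1.01, 1.02 and 0.963, and 411 of 532 cells had both a receptor and a ligand UMI. With 2 UMIs for a positive cell, the E15.5 ratio of ligands and targets was 0.808. Receptor UMIs were in 99.0% and 99.1% of the cells at these stages, so little room was left for separate cells.

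At P0 fewer epithelial cells had ligand UMIs (46 of 230). Receptor and ligand UMIs were found together in 30 cells, receptor alone in 137, ligand alone in 16 and neither in 47, and the thinned ratio was 0.846, or 0.209 when 2 UMIs make a cell positive. The 46 cells held 112 ligand UMIs before thinning, so the value with 2 UMIs rests on few cells. The thinned ratio for ligands and targets was 0.880, and that for receptors and targets 0.989. With the product taken within clusters these became 0.952, 1.01 and 0.977, nearer 1 for both pairs with ligands. The ratio for receptors and ligands lay above the 5th percentile of all genes against the ligands (0.624) and below that of all genes against the receptors (0.878).

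In mesenchyme the receptor and target ratio was 1.03 at E13.5, 1.18 at E15.5 and 1.13 at P0, beside 95th percentiles of 1.14, 1.27 and 1.25 for all genes against the targets. Receptors and ligands stood at 1.11, 1.08 and 1.12, and ligands and targets at 0.961, 1.08 and 0.915. The E15.5 receptor and target ratio also stood above the 95th percentile of all genes against the receptors, which was 1.13.

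**Figure D4:**
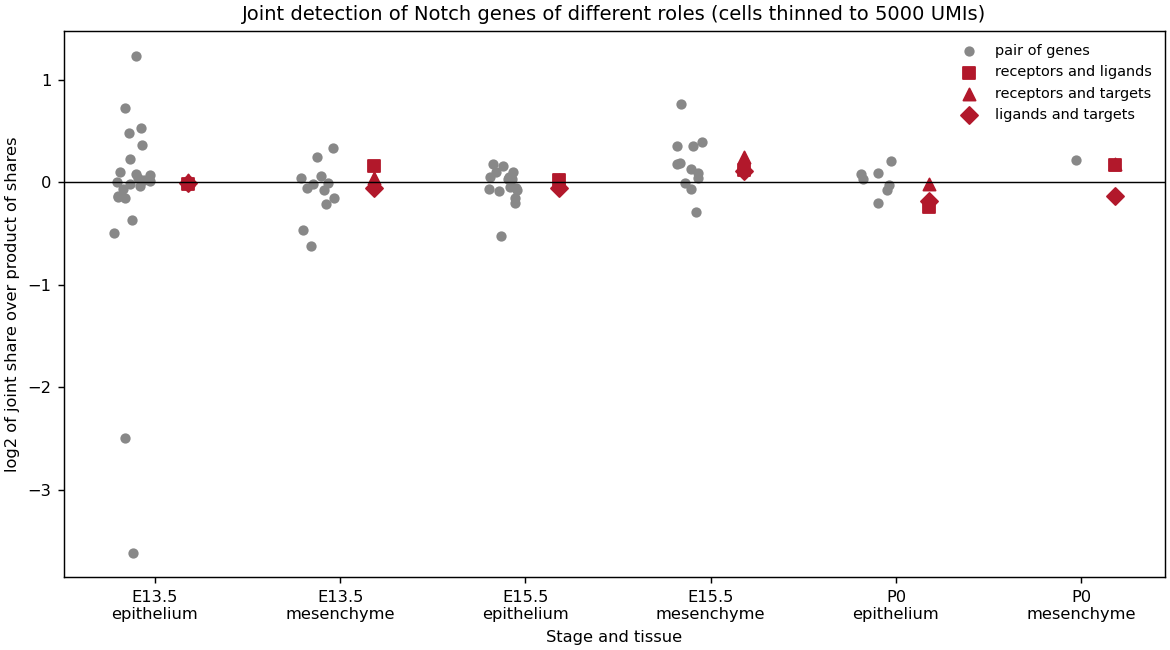
Log2 of the joint share over the product of the shares (vertical axis, 0 for a ratio of 1) in each stage and tissue with at least 50 cells (horizontal axis). Grey points are the 72 pairs of genes of different roles that were each found in at least 20% of cells, spread sideways for legibility, and red symbols are the 3 pairs of role groups. The 2 lowest points, Jag2 with Notch3 (0.0817) and Jag2 with Nrarp (0.177), are both from E13.5 epithelium.

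Of the 72 pairs of single genes 32 were below 1, as were 8 of the 18 pairs of role groups. The lowest was Jag2 with Notch3 in E13.5 epithelium: 4 cells had both, 38 Jag2 only, 25 Notch3 only and 31 neither, and the thinned ratio was 0.0817. Jag2 with Nrarp followed at 0.177, with 5 cells that had both, 37 Jag2 only and 23 Nrarp only. The 5th percentile of all genes was 0.518 against Jag2. The pairs named here and below were picked as extremes, so such percentiles serve as a scale and not as a test. Notch3 with Nrarp, a receptor with a target, had the highest ratio at 2.35, with 16 cells that had both, and the 95th percentile of all genes was 1.68 against Notch3. At full depth the ratios of these pairs, in the order named, were nearer 1, at 0.322, 0.417 and 1.93.

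Within the E13.5 clusters the picture was less marked. The ratio became 0.268 for Jag2 with Notch3, 0.822 for Jag2 with Nrarp and 1.09 for Notch3 with Nrarp when the product was taken within clusters. For Jag2 with Notch3 the thinned joint share was 0.189% of the 98 cells and the product within clusters 0.706%. The value of 0.268 thus rests on very few cells. Jag2 UMIs were in 36 of the 45 cells of the unnamed cluster and in 1 of 31 periderm-like cells, whereas Nrarp UMIs were in 5 and 20 of them and Notch3 UMIs in 4 and 21.

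**Figure D5:**
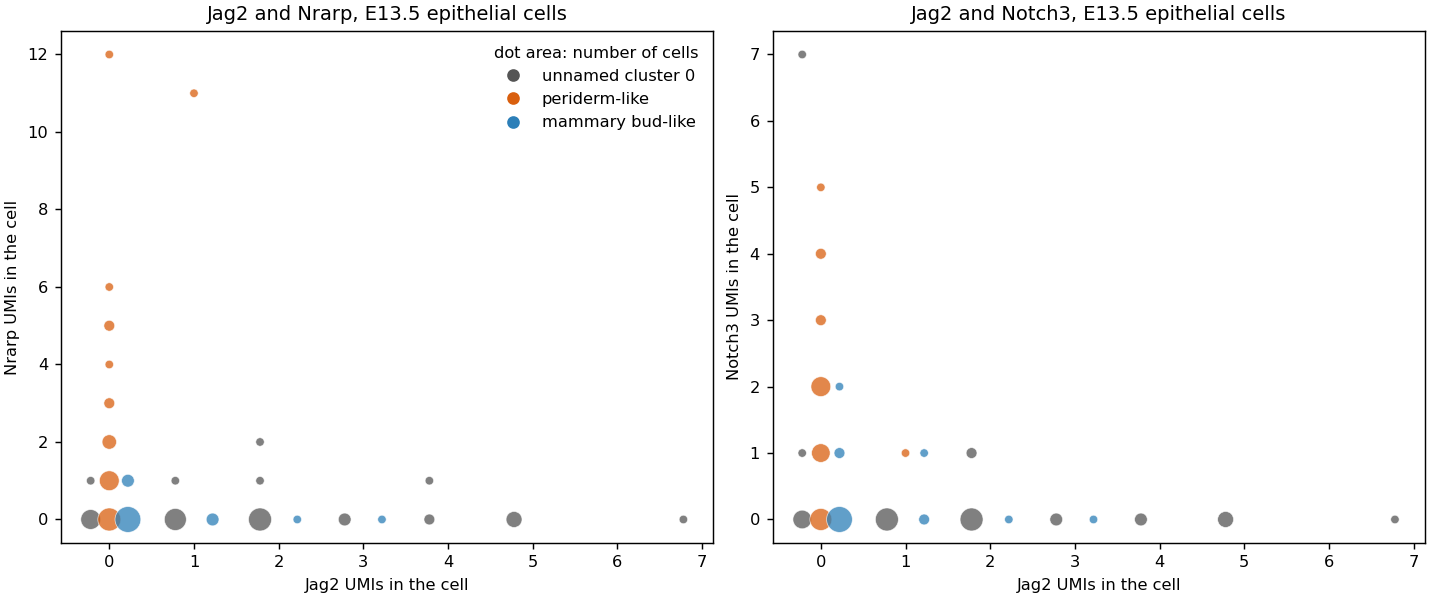
E13.5 epithelial cells by their number of Jag2 UMIs (horizontal axes) and of Nrarp (left) or Notch3 UMIs (right, vertical axes), with dot area for the number of cells and colour for the cluster, the clusters being set slightly apart sideways. Periderm-like cells lie along the vertical axis, 1 of 31 with a Jag2 UMI, and cells of the unnamed cluster along the horizontal axis, 36 of 45 with a Jag2 UMI.

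Jag2 with Notch3 was also the lowest pair of E15.5 epithelium, at 0.698 over all cells, 0.952 within clusters and 0.109 when 2 UMIs make a cell positive, with a 5th percentile of 0.794 against Jag2. No cell held over 5 Jag2 UMIs before thinning, so the value with 2 UMIs rests on few cells. The highest there was Notch2 with Jag1, at 1.13. In mesenchyme, Notch1 with Hes1 was the highest pair at both E13.5 (1.26) and E15.5 (1.70), and Notch1 with Jag1 the lowest (0.648 and 0.818). The E13.5 values lie between the 5th and 95th percentiles of all genes against Notch1 (0.628 and 1.48). At E15.5 Notch1 with Hes1 lies above the 95th percentile (1.29), but its ratio at full depth was 1.13. There 3 cells held 69 of the 233 Notch1 UMIs and 3 held 90 of the 434 Hes1 UMIs. With 2 UMIs for a positive cell Notch1 with Jag1 came to 0 at E13.5. No cell there held over 3 Notch1 or 4 Jag1 UMIs before thinning, so few could keep 2 of each. Notch1 with Hes1 came to 7.59 at E15.5, where 1 cell held 37 Notch1 UMIs and 1 held 49 Hes1 UMIs. Scrublet called 2 cells of E15.5 mesenchyme doublets. Without them Notch1 went from 233 to 186 UMIs and Hes1 from 434 to 383. With a 3-fold margin between tissue sums, 170 and 362 UMIs were left. The value with 2 UMIs was not computed again without these cells. In E13.5 mesenchyme 38 of the 42 cells with a Notch1 UMI had a Hes1 UMI, as did 67 of the 93 without. In E15.5 mesenchyme these shares were 46.4% of the cells with a Notch1 UMI and 38.2% of those without. In P0 epithelium the pairs ran from 0.870 for Notch3 with Numb (0.0743 with 2 UMIs for a positive cell) to 1.15 for Notch3 with Hes1. No cell there held over 4 Notch3 or 5 Numb UMIs, so the value with 2 UMIs also rests on few cells. In P0 mesenchyme the only pair with enough cells, Notch2 with Hes1, stood at 1.16.

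The rest of the pathway was followed as a list of 41 genes. Between tissues at E15.5, 3 of the 33 measured were higher in epithelium and 8 lower, and at P0 3 of 28 were higher and 7 lower, with median log2 ratios of -0.30 and -0.20. Of all genes tested, 16.2% were higher and 22.3% lower at E15.5 and 23.8% and 18.4% at P0, with medians of -0.10 and 0.30. Dlk1, a non-canonical ligand, was the most mesenchymal, at 1514 CPM against 8.61 at E15.5 and 7276 against 114 at P0. Numbl, the paralog of Numb, had the opposite tissue: it was lower in epithelium at all 4 stages, with ratios of 0.264, 0.468, 0.489 and 0.194, where those of Numb ran from 1.29 to 3.00. Pofut1, which adds O-fucose to Notch receptors, was also lower in epithelium, with 0.3995 at E15.5 and 0.244 at P0. Maml3, a coactivator of the Notch complex, was higher in epithelium, by 5.69-fold at E15.5 (4.93 to 6.59) and 2.13-fold at P0 (1.55 to 2.96), as was Fbxw7, which targets the receptor's intracellular domain for degradation (2.71-fold and 2.03-fold).

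Pathway genes were also compared within epithelium. Of 25 in luminal-like against basal-like cells of E15.5, 2 were higher and 3 lower (5.88% and 13.48% of all genes). Of 20 in luminal progenitor-like against basal-like cells of P0, 2 were higher and 1 lower (10.1% and 5.51%). Adam10, among the higher ones in both, encodes the protease that makes the first ligand-induced cut in the receptor. Its level in luminal-like cells of E15.5 exceeded that in basal-like ones 2.22-fold (1.84 to 2.70). In luminal progenitor-like cells of P0 it did so 2.28-fold (1.13 to 5.38), from 8 basal-like UMIs. Hormone-sensing-like cells were not compared for this gene. At P0 against E15.5 in epithelium, 3 of 28 pathway genes were higher and 4 lower, and in mesenchyme 3 of 31 were higher and 2 lower, beside 14.3% and 16.5% of all genes in epithelium and 13.9% and 26.3% in mesenchyme. Lower in P0 epithelium were Maml3 (ratio 0.307) and Fbxw7 (0.381), and higher were Dlk1 (13.2-fold) and Dtx4 (10.9-fold). Dlk1 was far higher in mesenchyme than in epithelium at both stages, as given above. Mesenchymal markers (8 genes) summed to 75.6 and 91.4 CPM in epithelium of E15.5 and P0, beside 3800 and 15202 CPM in mesenchyme. The part of RNA from mesenchymal cells in the epithelial Dlk1 values was not tested.

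Over the 8 groups of stage and tissue, the genes whose log2(CPM + 10) was most like that of a member were found among 8805 genes. These correlations rest on 8 groups from 4 libraries and carry no test. Notch1 was most like Trim29 and Ovol1 (both r = 0.993), Notch3 like Phlda2 (0.991) and Cnot7 (0.982), and Notch2 like Mocs2 (0.903) and Fbxo33 (0.901). The ligand Jag2 was most like Lipg (0.996) and Mir205hg (0.985), Jag1 like Map3k1 (0.969) and Rnf167 (0.958), and Dll1 like Itga3 (0.985) and Espn (0.984). Among targets Hes1 was most like Tle4 (0.956), which encodes a corepressor that Hes proteins recruit, and Arhgdib (0.942), Nrarp like Rnf144b (0.989) and Gm16136 (0.982), and Hey1 like Ppp1r21 (0.959) and Nfu1 (0.945). The Hey1 values rest partly on its highest group, E13.5 mesenchyme at 13.7 CPM, where 1 cell held 22 of 33 UMIs. Without that cell the level there was 4.61 CPM. Numb was most like Rbm47 (0.995) and Pard6b (0.991), a component of the polarity complex.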

How the data were processed

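Tables of raw UMI counts per gene and cell barcode were deposited by the authors for each of the 4 libraries, without normalization. Per the submitters' processing notes they were made with Cell Ranger 6.0.0 on mm10, while the E15.5 file header names 3.1.0. Genes were matched by Ensembl identifier. Kept cells had a minimum of 5000 UMIs and a mitochondrial share up to 6% (2111282 to 21559040 UMIs per stage), and doublets were removed only in an alternative. Levels carry exact Poisson, shares exact binomial and ratios exact conditional binomial 95% intervals, which leave out the spread between animals. No test was run, as no stage has a second library. Epithelial and mesenchymal cells of groups with at least 50 cells were clustered with Seurat 5.3.0 and sctransform 0.4.2 in R 4.3.3 (2000 variable genes, 15 principal components, resolution 0.8). A cluster was named from a list with 3 markers detected, in at least 0.25 of cells, and 2 raised, by a log2 fold of 0.5. These limits were set after the clusters were seen. An epithelial cluster whose best list was that of mesenchyme stayed unnamed. Scrublet calls came from scanpy 1.11.5 and levels from pandas 2.3.3, and the counting and thinning steps were tested on simulated data.

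All 10 members are named in the text; other genes are the 2 most like each member and those of the pathway list past the fold between tissues at E15.5 or P0. The members and lists were chosen with earlier results of these data known. A 3′ UMI count is per transcript and not per length. Alternatives covered the filters, tissue margin, doublets, scaling, fold, gene minimum, clustering and definition of a positive cell.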

Additional observations from a re-analysis of the deposited data

Results flagged for a closer look

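Notch1 differed from basal-like cells in opposite directions in luminal-like cells of E15.5 and luminal progenitor-like cells of P0. The classes of E15.5 and of P0 were named from marker lists that share no gene. The study chose the markers of the E15.5 lists on these same samples. Its ratio of luminal-like to basal-like cells was 0.563 at E15.5 (interval 0.510 to 0.621), and that of luminal progenitor-like to basal-like cells was 1.88 at P0 (1.05 to 3.71), where the basal-like cells held 12 UMIs. Hormone-sensing-like cells of P0 stood at 49.4 CPM beside 57.4 CPM in basal-like cells, and the interval of that ratio held 1. Hes1 went opposite ways in the tissues between E15.5 and P0, with a ratio of P0 to E15.5 of 0.257 in epithelium (0.233 to 0.284) and 2.74 in mesenchyme (2.39 to 3.14). In both cases the intervals cover counting error in 1 library a stage, and the difference itself was not tested.

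The barcodes left out by the filters, which the reported comparisons did not use (some entered the alternatives with looser filters), also held UMIs of the 10 genes. From E13.5 to P0 their summed level was 1429, 1071, 1034 and 669 CPM, beside 1019, 1157, 906 and 352 CPM in the kept cells, and 3 counts would be at most 2.50 CPM.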

How the results depend on the processing

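Epithelial and mesenchymal cells of a stage came from the same library, so the ratios of tissues were taken within it. Each stage is 1 library, so no paired analysis over replicates of a stage was possible. Of 679 ratios under an alternative, 637 kept their call with its direction or stayed uncalled. An uncalled ratio could cross 1 and still be counted among these. Of 400 levels 386 stayed within their interval, as did 224 of 232 joint detection values, and 149 of 166 counts stayed within 1.5 times. The count of members lower at E14.5 was 1 in place of 0 with cells of at least 3000 UMIs, with a mitochondrial share up to 10% and with a fold of 1.5. At E13.5 it was 1 in place of 2 with the mean CPM of each cell, with scaling by the median ratio and, without the richest cell, through Hey1. With the mean CPM of each cell, taken after thinning, 2 in place of 6 members were higher at E14.5 and 0 in place of 1 in P0 epithelium against E15.5, where fewer UMIs remain. In mesenchyme at P0 against E15.5, 1 in place of 2 was lower with a 3-fold margin between tissue sums and with median scaling. Some alternatives were chosen after seeing the data. With E14.5 as the earlier stage, 0 members were higher in either tissue and 0 lower in mesenchyme, where Notch1 was at 1.03 and Hes1 at 0.673. With E13.5, Hes1 was at 0.353 and 0 members were higher in mesenchyme. With log-normalized values, 2 in place of 1 were lower in luminal-like cells of E15.5 (Notch1 joined, at 0.495). Without the richest cell, 1 in place of 2 was lower in luminal progenitor-like cells of P0. P0 mesenchyme gave 3 in place of 6 clusters at resolution 0.4. With 2 UMIs for a positive cell, joint detection was 0.808 for ligands and targets in E15.5 epithelium, 1.59 for receptors and ligands and 2.56 for receptors and targets in E15.5 mesenchyme, and 0.209 for receptors and ligands in P0 epithelium. The last value rests on few cells, as 46 cells held 112 ligand UMIs there before thinning. For other changes the cause was not tested. Without the richest cell of each stage, 17 of 21 pairs of neighbouring stages stayed apart. Depth limits Dll1, Hey1 and Nrarp, which had at most 42, 33 and 125 UMIs in a group, and E14.5, where 11 of 76 cells were called doublets by Scrublet. The spread between animals could not be measured.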
